A study of Mus musculus with 12 samples.

Results

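The 10 genes studied here, of neutrophils and their precursors, were followed in bone marrow-derived macrophages (BMDMs), of 38739 gene symbols in the deposited table. They were S100a8, S100a9, Ngp, Camp, Ltf, Elane, Mpo, Prtn3, Chil3 and Cxcr2, and all 10 were listed in all 12 columns. The list was chosen by gene name from knowledge of neutrophil granules, with earlier results of these same 12 columns known, so the levels and calls of the members are a description and support nothing by themselves. RNA was sequenced from 12 BMDM samples in 4 groups of 3, which were wild-type (WT) and cGAS-/- cells, each left untreated (UT) or given lipopolysaccharide (LPS), a component of the outer membrane of Gram-negative bacteria. cGAS, encoded by Cgas, is a sensor of cytosolic DNA, and it was missing from every cell of the cGAS-/- mice and not from one cell type alone. Both genotypes were on the C57BL/6J background, and the methods describe male mice 8 weeks old. According to the methods LPS was given at 150 ng/mL for 24 h, whereas the sample labels give 100 ng/mL and 1 h, and they also name neutrophils in the RNA extraction step although the sample type is BMDM. The 3 samples of a group are called technical replicates in the study, so p-values measure only the spread between these samples.

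Neutrophils package antimicrobial proteins into granules while they mature in the bone marrow. Azurophil granules form first, at the promyelocyte stage, and hold myeloperoxidase and serine proteases such as neutrophil elastase and proteinase 3. Specific granules form later and hold lactoferrin, the cathelicidin precursor and neutrophilic granule protein, while S100A8 and S100A9 fill the cytosol of the mature cell as the heterodimer calprotectin. Transcripts of the granule proteins are made in precursors and are mostly shut off in the mature neutrophil, and factors of the C/EBP family and PU.1 are known for driving many of these genes in the marrow.

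Values are TPM (transcripts scaled to a fixed total per sample), a measure scaled for transcript length, averaged in the deposited table over the transcripts of a symbol, so levels are compared between samples and not between genes. How many reads stand behind each value cannot be read from the table, so depth is unknown. Totals of a sample lay between 447189 and 503156 in 11 samples and reached 709802 in WT LPS replicate 3. The genes above 0 numbered 12787 in WT LPS replicate 1 and 12261 in WT LPS replicate 3, against 15378 to 17573 in the other 10 samples. These WT LPS samples therefore stood apart, and values without one of them are given for some members and list genes whose call they change. None are given for genes listed only as cell type markers, so how far the results of those genes rest on 1 WT LPS sample is not shown. Cgas, the deleted gene, ranged from 1.19 to 3.25 TPM over the 6 WT samples and from 0.0703 to 0.291 TPM over the 6 cGAS-/- ones, which matches the genotype labels. Macrophage markers were present throughout, since all 8 of the 11 listed markers that the table holds were above 0 in every sample. Lyz2, a lysozyme gene that neutrophils express as well, was at 15701 to 33426 TPM and made up most of their sum. Of the others, Cd68 was at 153 to 1046 TPM, C1qc was at 317 to 1341 TPM, and Mertk was at 3.10 to 22.4 TPM. C1qa was at 1729 to 1764 TPM in WT UT and 732 to 831 TPM in cGAS-/- UT samples. With LPS, 2 of the 8 rose and 2 fell in WT cells, and 3 rose and 2 fell in cGAS-/- cells. Between untreated genotypes 0 of the 8 passed limma's adjusted p. C1qa, C1qb, C1qc, Mertk and Fcgr1 were lower in every cGAS-/- UT sample, Lyz2 and Msr1 were higher, and Cd68 overlapped. In cGAS-/- LPS against WT LPS, C1qa was lower (log2 fold change -1.47, limma's adjusted p = 0.0486) and Lyz2 was higher (0.80, adjusted p = 0.0366). In bulk samples, fewer cells of a type and less RNA per cell cannot be told apart.

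The members sit on 5 chromosomes of GRCm39 (gene positions from GENCODE M39). S100a8 (chr3:90567118-90578128, plus strand) and S100a9 (chr3:90599931-90603071, minus strand) are 21.8 kb apart, and Chil3 (chr3:106054870-106074880, minus strand) is on the same chromosome. Camp (chr9:109676442-109678685, minus strand), Ngp (chr9:110248815-110252086, plus strand) and Ltf (chr9:110848339-110871835, plus strand) follow one another with gaps of 570.1 and 596.3 kb. Cgas is on chromosome 9 as well, 31.33 Mb before Camp. Prtn3 (chr10:79710310-79719008) and Elane (chr10:79722081-79724051) are 3.1 kb apart on the plus strand, Mpo is at chr11:87684407-87695239 and Cxcr2 at chr1:74193150-74200405, both on the plus strand. Prtn3 overlaps Plppr3 and Mpo overlaps the long noncoding RNA Gm11505, each on the other strand. The Mpo transcript shares 208 bases with Gm11505 at 100.0% identity. Chil3 is 94.3% identical to Chil4 over its whole canonical transcript, so reads of this pair could be split between them, although Chil4 was listed at 0 in 11 of 12 samples and at 0.0943 TPM in the other.

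The promoters of the specific granule genes and of the azurophil granule genes are shown because members of both groups were highest in the same 3 samples. Each sequence is the 120 bases before the start of the Ensembl canonical transcript, read 5′ to 3′ along the gene, and capitals mark a match to a C/EBP-type motif (TTGCNNAA, or TTNNGCAA on the other strand) or to the core of a PU.1 motif (GAGGAA, or TTCCTC on the other strand).
Ngp, chr9:110248695-110248814, plus strand: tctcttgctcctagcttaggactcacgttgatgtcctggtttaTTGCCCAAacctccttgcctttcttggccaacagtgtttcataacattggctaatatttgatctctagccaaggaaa
Ltf, chr9:110848219-110848338, plus strand: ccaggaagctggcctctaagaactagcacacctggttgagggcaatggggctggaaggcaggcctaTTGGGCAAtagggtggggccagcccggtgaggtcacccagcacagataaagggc
Camp, chr9:109678686-109678805, minus strand: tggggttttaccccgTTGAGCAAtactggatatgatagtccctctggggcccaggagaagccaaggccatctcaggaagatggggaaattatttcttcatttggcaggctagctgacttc
Elane, chr10:79721961-79722080, plus strand: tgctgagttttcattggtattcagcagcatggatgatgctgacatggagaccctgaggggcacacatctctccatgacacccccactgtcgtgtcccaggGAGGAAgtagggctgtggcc
Prtn3, chr10:79715328-79715447, plus strand: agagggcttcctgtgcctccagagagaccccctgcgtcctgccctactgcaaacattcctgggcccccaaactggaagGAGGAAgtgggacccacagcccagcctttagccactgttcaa
Mpo, chr11:87684287-87684406, plus strand: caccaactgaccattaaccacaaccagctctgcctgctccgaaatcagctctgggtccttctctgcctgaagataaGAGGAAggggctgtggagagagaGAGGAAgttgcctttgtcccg
In this display the specific granule genes carry the C/EBP letters and the azurophil granule genes the PU.1 letters. The C/EBP match began 77 bases before the start in Ngp, 54 in Ltf and 105 in Camp. The PU.1 match began 20 bases before the start in Elane, 42 in Prtn3, and 44 and 21 in Mpo. Over the 250 bases before the start, 4 of 10 members held the C/EBP letters (the other was S100a9), against 9.34% of 21751 protein-coding promoters. The PU.1 letters were in 6 of 10 members (also S100a8, Ltf and Cxcr2), against 22.9% of promoters, and Chil3 held neither. None of these matches overlapped another, and a match of letters is not a measured binding site.

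Among the specific granule genes, Ngp, which encodes a cystatin-like protein of the secondary granules, was high in the WT UT samples alone. Its TPM in the 3 WT UT samples was 26.3, 32.3 and 24.1. In the WT LPS samples it was 4.92, 2.21 and 9.90, in the cGAS-/- UT samples 0.657, 2.22 and 3.13, and in the cGAS-/- LPS samples 1.17, 1.38 and 0.867. Every WT UT sample was above every other sample, and the cGAS-/- LPS samples were all below the WT LPS samples. The mean fell from 27.6 ± 4.24 (SD, n = 3) in WT UT to 2.0 ± 1.25 in cGAS-/- UT, a ratio of 13.8 between the means. Ltf, which encodes the iron-binding protein lactoferrin, was at 1.25, 1.22 and 1.14 TPM in WT UT cells. It was at 0.413, 0.124 and 0.263 TPM with LPS in WT cells, at 0.173, 0.124 and 0.114 TPM in cGAS-/- UT cells, and at 0.0300, 0.0674 and 0.0499 TPM in cGAS-/- LPS cells. Ltf thus had the same highest group as Ngp, and its cGAS-/- LPS samples lay below all other samples.

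Camp, which encodes the precursor of the antimicrobial peptide cathelicidin, had another order of groups. Its TPM was 1.30, 1.63 and 6.25 in WT UT, 1.38, 3.84 and 4.38 in WT LPS and 2.76, 4.0 and 4.92 in cGAS-/- LPS samples. In cGAS-/- UT cells it was listed at 0 in 2 samples and at 0.650 TPM in the third. The cGAS-/- UT samples were therefore below all 9 others, which overlapped one another. Camp had a C/EBP match like Ngp and Ltf and lies on the same chromosome, but did not share their pattern.

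Of the azurophil granule genes, Elane, encoding neutrophil elastase, was at 0.774, 0.844 and 0.945 TPM in the WT UT samples. Outside that group it was above 0 in 2 of 9 samples, at 0.547 TPM in WT LPS replicate 2 and at 0.226 TPM in 1 cGAS-/- LPS sample, and it was listed at 0 in all 3 cGAS-/- UT samples. The WT LPS samples with Elane at 0 were those with the fewest genes above 0. Mpo, encoding the myeloperoxidase that makes hypochlorous acid, was at 0.257, 0.219 and 0.240 TPM in WT UT cells. It was at 0.0292 and 0.104 TPM in 2 WT LPS samples and 0 in the third, and no cGAS-/- sample exceeded 0.00930 TPM. Prtn3, encoding proteinase 3, was at 0.207 and 0.603 TPM in 2 WT UT samples and 0 in the other. Beyond these it reached 0.103 TPM in 1 cGAS-/- UT and 0.127 TPM in 1 cGAS-/- LPS sample. Elane and Mpo thus separated the WT UT samples from all the rest as Ngp and Ltf did, whereas Prtn3 did not, and each of these genes stayed under 1 TPM in every sample.

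Chil3, encoding the chitinase-like lectin Ym1 that both neutrophils and alternatively activated macrophages make, was at 4.2, 6.92 and 7.33 TPM in WT UT cells. Its TPM was 0.962, 0.663 and 0 in WT LPS, 0.836, 0.882 and 1.26 in cGAS-/- UT and 0.383, 1.15 and 0.596 in cGAS-/- LPS samples. The 9 samples outside WT UT overlapped, and all lay below the lowest WT UT sample. Cxcr2, the receptor by which neutrophils follow CXC chemokines, stayed between 0.344 and 0.519 TPM in WT UT, 0.253 and 0.440 in WT LPS, 0.291 and 0.381 in cGAS-/- UT, and 0.0813 and 0.268 in cGAS-/- LPS samples. Neighbouring groups of Cxcr2 overlapped except cGAS-/- LPS and cGAS-/- UT, which were separated by a narrow gap.

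**Figure D1:**
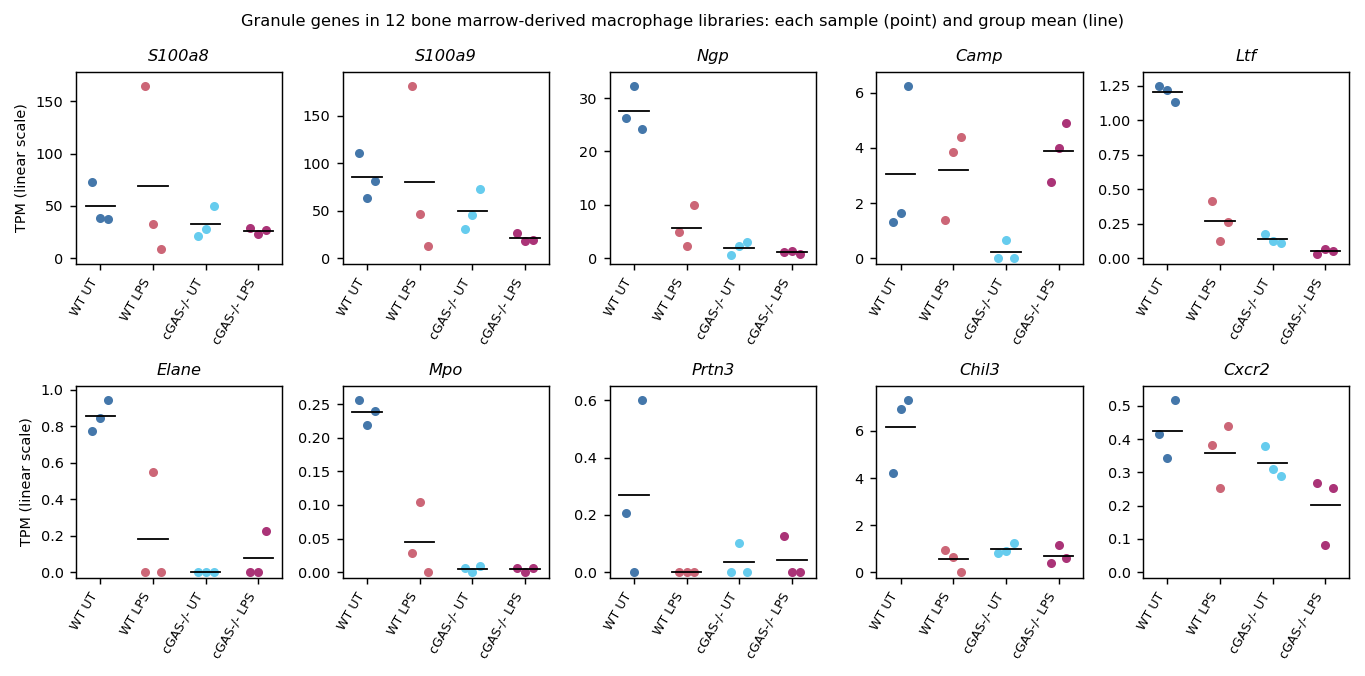
TPM of each member (linear axis, own scale per panel) in the 4 groups, with a point per sample and a line at the group mean (n = 3). Ngp, Ltf, Elane, Mpo and Chil3 have all 3 WT UT samples above the other 9, Camp has the 3 cGAS-/- UT samples below the other 9, and S100a8 and S100a9 spread most in WT LPS.

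S100a8 and S100a9, the calprotectin subunits, overlapped between most groups. S100a8 was at 73.1, 38.9 and 37.5 TPM in WT UT, 165, 33.2 and 8.43 TPM in WT LPS, 21.5, 27.7 and 50.1 TPM in cGAS-/- UT, and 29.1, 23.3 and 26.9 TPM in cGAS-/- LPS samples. S100a9 was at 110, 63.8 and 80.9 TPM in WT UT, 181, 46.2 and 12.5 TPM in WT LPS, 30.6, 45.2 and 72.3 TPM in cGAS-/- UT, and 26.8, 17.6 and 19.5 TPM in cGAS-/- LPS samples. The WT LPS group held both the highest and the lowest sample of either gene, with a mean of 68.8 ± 84.1 TPM for S100a8 and 80.0 ± 89.4 TPM for S100a9 (SD, n = 3). The highest of these, WT LPS replicate 1, also had the highest sum of 4 globin transcripts, markers of red cell precursors, at 37.4 TPM. The lowest, WT LPS replicate 3, had the lowest globin sum, 1.56 TPM, and the other 10 samples had sums of 2.66 to 17.8 TPM. Whether red cell precursors had a part in the S100a8 and S100a9 levels was not tested.

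The ratio of S100a9 to S100a8 within a sample was steadier than either level. It was 1.51, 1.64 and 2.15 in WT UT, 1.10, 1.39 and 1.48 in WT LPS, 1.42, 1.63 and 1.44 in cGAS-/- UT, and 0.923, 0.756 and 0.724 in cGAS-/- LPS samples. The cGAS-/- LPS samples were the only ones of the 12 in which the S100a9 value was below the S100a8 value. A ratio within a sample does not depend on how the sample is scaled, and the ratio was read from the data after the values were seen.

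**Figure D2:**
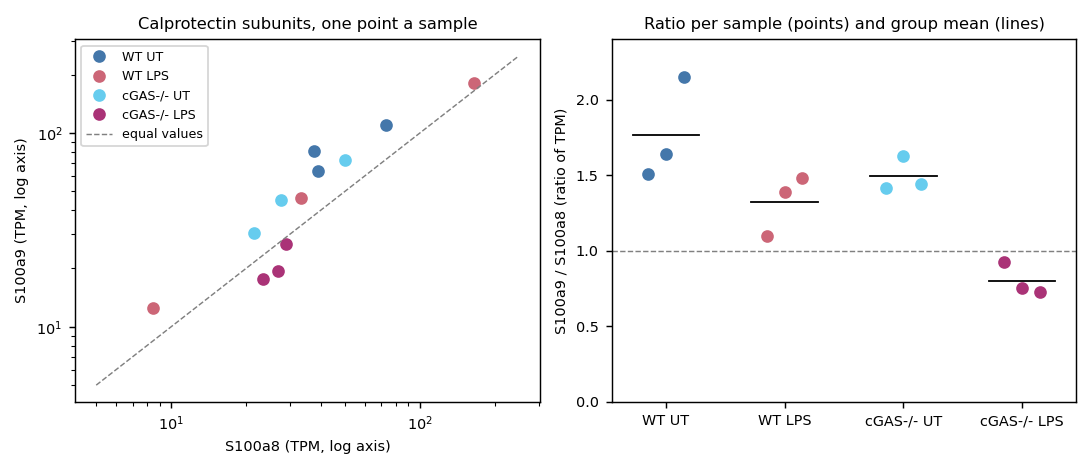
Left, S100a9 against S100a8 in TPM (both axes logarithmic) with a point per sample and a dashed line where the values are equal. Right, the S100a9 to S100a8 ratio per sample with a line at each group mean (n = 3); the 3 cGAS-/- LPS samples lie at 0.724 to 0.923 and the other 9 at 1.10 to 2.15.

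The groups were compared with limma on log2(TPM + 1), fitted across all genes with at least 1 TPM in at least 3 of 12 samples after each sample was rescaled to 1000000 for this filter only, which left 11887 genes. The scale understates the change of genes with low values. Of the 10 members, 7 passed this filter, and Mpo, Prtn3 and Cxcr2 did not. Ltf reached the filter in the 3 WT UT samples alone and Elane in these and in WT LPS replicate 2, so neither would have passed without the group in which it was highest. A gene was called at an adjusted p (Benjamini-Hochberg over all 11887 genes) under 0.05 and a log2 fold change beyond 2, the thresholds of the study.

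The first comparison asked how untreated cells of the genotypes differed. In cGAS-/- UT against WT UT, Ngp was called lower, and Chil3, Ltf and Elane were lower by the adjusted p alone. On the log2 scale Ngp fell by 3.34 ± 0.430 (SE; adjusted p = 0.00186), Chil3 fell by 1.82 ± 0.286 (adjusted p = 0.0066), Ltf fell by 0.95 ± 0.132 (adjusted p = 0.00299) and Elane fell by 0.89 ± 0.181 (adjusted p = 0.0311). Camp had a log2 fold change of -1.58 ± 0.450 and an adjusted p of 0.158, S100a8 of -0.60 ± 0.797 and S100a9 of -0.82 ± 0.732, both with an adjusted p of 1. Of all genes tested, 0.370% were called and 1.83% passed the adjusted p. The filter favoured Ltf and Elane being lower than WT UT, so no count over the members is read against these shares, and Ngp was the 1 member called. The median log2 fold change over all genes tested was -0.04. Without a filter, the cGAS-/- UT samples lay wholly below the WT UT samples for 6 of 10 members, namely Ngp, Camp, Ltf, Elane, Mpo and Chil3, and this held for 12% of the 23590 genes above 0 in any sample. In a fit without the filter, Mpo had a log2 fold change of -0.30 ± 0.0352 with an adjusted p of 0.00301, on a scale where its values barely exceed 0. Elane passed the adjusted p in 9 of 22 alternative settings, Chil3 did not pass it with a pseudocount of 0.1 (adjusted p = 0.265) and Ltf did not with quantile normalization (adjusted p = 0.0897).

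The second comparison asked the same with LPS. In cGAS-/- LPS against WT LPS no member passed limma's adjusted p, and 1 of 7, Ngp, had an unadjusted p under 0.05, as did 18.8% of all genes tested. Its log2 fold change was -1.47 ± 0.430 (adjusted p = 0.119), and without WT LPS replicate 2 it was -1.92 (adjusted p = 0.00762). S100a9 had -1.15 ± 0.732 (adjusted p = 0.395). Its value depended on which WT LPS sample was left out, at -2.08 (adjusted p = 0.0411) without replicate 3 and -0.20 (adjusted p = 0.822) without replicate 1. S100a8 had -0.46 ± 0.797 and turned to 0.61 without WT LPS replicate 1. Of all genes tested, 0.614% were called and 2.36% passed the adjusted p. Ngp and Ltf were the 2 of 10 members with every cGAS-/- LPS sample below every WT LPS sample, which held for 3.52% of genes above 0. The smallest p that an exact two-sided permutation of 3 samples against 3 allows is 0.1, so no such test was used for single members.

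The third comparison, LPS against UT in WT cells, asked which genes responded to LPS. Chil3 fell by 2.24 ± 0.286 (log2 scale; adjusted p = 0.00028) and Ngp fell by 2.26 ± 0.430 (adjusted p = 0.00339), and both were called. Ltf fell by 0.80 ± 0.132 (adjusted p = 0.0014) and Elane fell by 0.68 ± 0.181 (adjusted p = 0.0188). S100a8 stood at -0.36 ± 0.797, S100a9 at -0.78 ± 0.732 and Camp at 0.17 ± 0.450 on the log2 scale, none past the adjusted p. Of all genes tested, 4.32% were called and 27.6% passed the adjusted p, and as Ltf and Elane owed their place past the filter to WT UT, no count over the members is read against these shares. The median log2 fold change over all genes tested was -0.46, and with factors of the trimmed mean of M-values (TMM) the median over all genes was -0.12. Without WT LPS replicate 3, Chil3 was at -1.95 (adjusted p = 0.000251) and Ngp at -2.70 (adjusted p = 0.000429). Ngp did not pass the adjusted p with TMM factors (-1.65, adjusted p = 0.0608). Neither Ngp nor Chil3 was called with TMM factors, quantile normalization or a pseudocount of 5, although Chil3 passed the adjusted p in all 23 alternatives. Elane did not pass the adjusted p in 7 of 22 alternatives, among them without WT LPS replicate 1 (-0.57, adjusted p = 0.0507) and without WT UT replicate 2 or 3, and Ltf did not in 2 of 22, which were quantile normalization (adjusted p = 0.266) and the fit to the 6 samples alone. S100a8 turned to 0.63 without WT LPS replicate 3 and was at -1.43 without replicate 1. S100a9 was past the threshold without WT LPS replicate 1 (-1.73, adjusted p = 0.0363) and at 0.15 without replicate 3. For 5 of 10 members, namely Ngp, Ltf, Elane, Mpo and Chil3, every WT LPS sample was below every WT UT sample, as for 20.2% of genes above 0. Both this comparison and that of the untreated genotypes use the same 3 WT UT samples.

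The fourth comparison was LPS against UT in cGAS-/- cells. Camp rose by 2.02 ± 0.450 on the log2 scale (adjusted p = 0.0112) and was the 1 member of 7 past the adjusted p or called, where 3.50% of all genes were called and 13.8% passed the adjusted p. Without cGAS-/- UT replicate 1 or 3, or cGAS-/- LPS replicate 3, its adjusted p was 0.0512, 0.0503 and 0.0514. The other members did not pass, with log2 fold changes of -0.40 ± 0.430 for Ngp, -0.24 ± 0.286 for Chil3, -0.12 ± 0.132 for Ltf, 0.10 ± 0.181 for Elane and -0.23 ± 0.797 for S100a8. S100a9 had -1.11 ± 0.732 (adjusted p = 0.405), with a spread shared with the WT LPS samples, and from the 6 cGAS-/- samples alone its adjusted p was 0.0388. The groups did not overlap for 4 of 10 members. Camp was higher in every LPS sample, as were 9.12% of genes above 0, and S100a9, Ltf and Cxcr2 were lower, as were 23.5%.

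Whether the LPS effect differed between the genotypes was tested by the interaction term. Chil3 had a difference of 2.0 ± 0.405 between the LPS effects (adjusted p = 0.0497), in which the WT effect was the larger fall, and no member was past both thresholds. Of all genes tested, 0.404% were called, 0.900% passed the adjusted p and 11.1% had an unadjusted p under 0.05. Among the members 5 had an unadjusted p under 0.05, but Elane and Ltf are among them and owed their place past the filter to WT UT, so this count is not read against the shares. Chil3 was past the adjusted p in 5 of 22 alternatives. The differences were 1.86 ± 0.608 for Ngp (adjusted p = 0.259), 1.86 ± 0.636 for Camp (adjusted p = 0.291), 0.78 ± 0.257 for Elane (adjusted p = 0.267) and 0.69 ± 0.186 for Ltf (adjusted p = 0.155). Ngp was past both thresholds in the interaction without WT LPS replicate 3 (adjusted p = 0.0311), and without WT LPS replicate 2 Elane (adjusted p = 0.014) and Ltf (adjusted p = 0.039) passed the adjusted p.

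**Figure D3:**
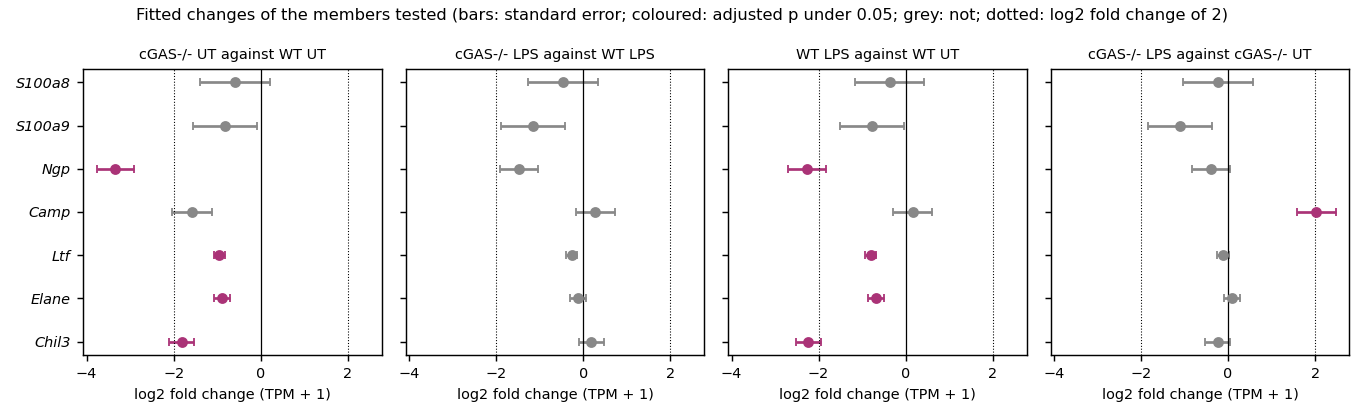
Fitted log2 fold change on TPM + 1 with its standard error for the 7 members tested in each of 4 comparisons, with coloured points where the adjusted p was under 0.05. Ngp, Ltf, Elane and Chil3 are coloured and below 0 in cGAS-/- UT against WT UT and in WT LPS against WT UT, Camp alone is coloured in cGAS-/- LPS against cGAS-/- UT, and none in the LPS comparison of genotypes.

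Profiles of the members over the 12 samples are given as a description, since the members were chosen with these values known and a shared high in WT UT by itself gives a high correlation. The Pearson correlation of log2(TPM + 1) was 0.94 between Ngp and Ltf, 0.89 between Ltf and Chil3, 0.82 between Elane and Chil3 and between Elane and Ltf, and 0.74 between Ngp and Elane. S100a8 and S100a9 correlated at 0.91 with each other and at 0.24 and 0.48 with Ngp, and Camp at no more than 0.34 with any other. These are descriptions over 12 samples that share 4 groups. The tested genes most like Chil3 were Brip1 (0.97), Foxm1 (0.97) and Aurkb (0.96), genes of DNA repair and of cell division. Those most like Ngp were Gm38012 (0.96), the antioxidant enzyme gene Gpx1 (0.95) and Ltf (0.94). Those most like Ltf were Gm43690, Gm44402 and Gm34425 (each 0.96), and those most like Elane were Cep85 (0.95), Gm11759 (0.95) and Cdr2l (0.94). S100a8 was most like Gm13166 (0.93), Psmd9 (0.91) and S100a9 (0.91), S100a9 was most like Tmsb10, Ptger1 (each 0.93) and Gpt2 (0.92), and Camp was most like Gm2446 (0.84), Tubb4b (0.84) and Gm28913 (0.83).

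Other granule proteins were counted as a separate list. The list held 25 genes, of which 20 were in the table and 17 were tested. In cGAS-/- UT against WT UT, 0 of 17 passed limma's adjusted p (3 at an unadjusted p under 0.05), with a median log2 fold change of -0.22. That test shares its spread with the WT LPS samples. By levels, Arg1, Cst7, Cd63, Cyba, Mmp8, Mmp9, Serpinb1a and Srgn were lower in every cGAS-/- UT sample than in any WT UT sample. Adam8 and Lyz2 were higher in every one, and the other genes tested overlapped. Cst7 was at 0.157 to 0.462 TPM in cGAS-/- UT and 1.48 to 2.42 TPM in WT UT samples. With LPS in WT cells 5 rose and 1 fell, and with LPS in cGAS-/- cells 11 rose and 2 fell, with medians of 0.37 and 1.66 where all genes had -0.46 and -0.20. Among all genes tested 27.6% and 13.8% passed in these comparisons, so the WT count of 6 of 17 is close to the background. Lcn2, the siderophore-binding neutrophil gelatinase-associated lipocalin of specific granules, rose by 3.85 in WT (adjusted p = 0.00085) and 6.27 in cGAS-/- cells (adjusted p = 3.4e-05). The rise of Hp, encoding haptoglobin, was 3.62 in WT and 5.87 in cGAS-/- cells. Mmp9, the gelatinase of the granules formed last, was at 2.84, 4.09 and 3.77 TPM in WT UT, 4.18, 4.06 and 0.744 TPM in WT LPS, 0.465, 0.518 and 0.766 TPM in cGAS-/- UT, and 51.8, 48.9 and 47.6 TPM in cGAS-/- LPS samples. It was the 1 of 17 whose LPS effect differed between genotypes (5.34 ± 0.513, adjusted p = 0.000949). Between genotypes with LPS, Lyz1, Lyz2, Hp and Mmp9 were higher in cGAS-/- cells and Cst7 was lower, where 2.36% of all genes passed. Without WT LPS replicate 1, Lyz1 and Lyz2 did not pass (adjusted p = 0.0574 and 0.0518). The log2 fold changes without WT LPS replicate 3 were 1.85 for Hp, no longer beyond 2, and -2.003 for Cst7, from 2.08 and -1.63. Many of these genes are also made by macrophages, and the set was counted beside the members without a test of the difference.

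**Figure D4:**
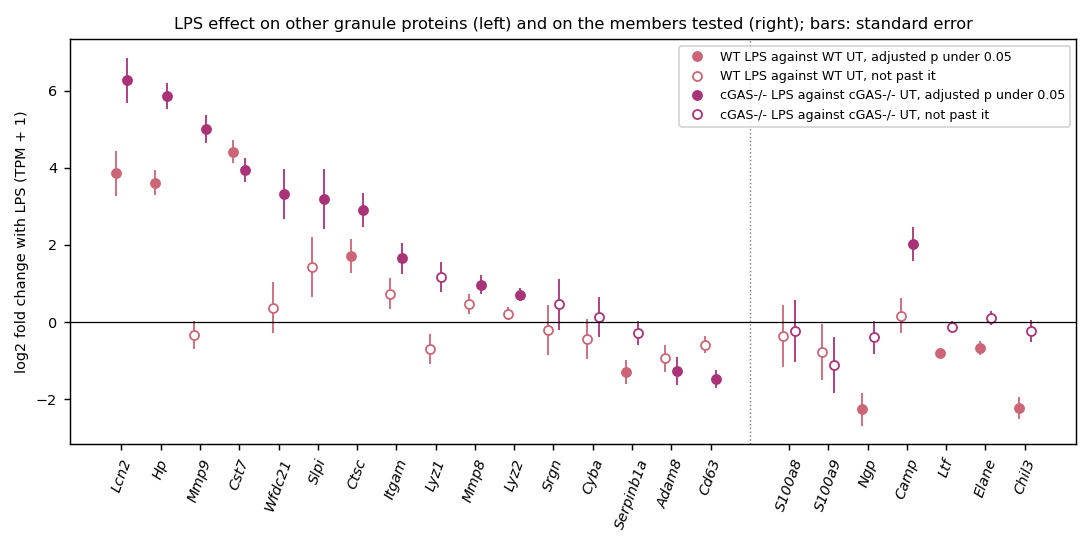
Fitted log2 fold change with LPS (TPM + 1, bars: standard error) in WT and cGAS-/- cells for other granule proteins of the list, left, and the 7 members tested, right, with filled points where the adjusted p was under 0.05. Lcn2, Hp, Cst7 and Ctsc rose in both genotypes, while among the members Camp alone rose, in cGAS-/- cells.

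Ligands of Cxcr2 and related genes were listed apart, and 6 of these 7 genes were tested. Cxcl1, Cxcl2 and Cxcl3, neutrophil-attracting chemokines, rose with LPS in WT cells by 2.60, 2.26 and 2.78 and in cGAS-/- cells by 5.49, 5.00 and 6.0 on the log2 scale. They were higher in cGAS-/- LPS than in WT LPS cells by 2.99, 2.76 and 3.17 (adjusted p = 0.018, 0.046 and 0.013), although for none was the interaction past the threshold. Without WT LPS replicate 1 the rise of Cxcl2 in WT cells did not pass (1.71, adjusted p = 0.0622), and without replicate 3 its difference between genotypes was 1.95. Leaving out replicate 3 also moved that difference to 2.23 for Cxcl1 and 2.44 for Cxcl3. Their rises in WT cells were then 3.36 and 3.51. Cxcl3 was at 33.3, 23.6 and 5.31 TPM in WT LPS and at 182, 149 and 141 TPM in cGAS-/- LPS samples. Cxcl5 rose by 0.94 in cGAS-/- cells, and Pf4 passed in no comparison. Ppbp, the platelet basic protein gene, had another pattern, at 9.62, 15.7 and 15.5 TPM in WT UT and 1.18, 0.720 and 0.279 TPM in cGAS-/- UT cells (log2 fold change -3.08, adjusted p = 0.0044). It was also lower in cGAS-/- LPS than WT LPS cells (-2.13, adjusted p = 0.037), though not without WT LPS replicate 1 (-1.75, adjusted p = 0.0758).

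Of the other S100 genes, 6 of 14 were tested and none passed between genotypes (1 at an unadjusted p under 0.05 in each of the UT and LPS comparisons). That test shares its spread with the WT LPS samples. In untreated cells S100a4, S100a6, S100a10, S100a11 and S100a13 were still lower in every cGAS-/- sample, while S100a1 overlapped. S100a11 was at 418 to 522 TPM in cGAS-/- UT and 748 to 865 TPM in WT UT samples. The list's median log2 fold change there was -0.69, against -0.04 over all genes tested. With LPS in WT cells S100a4 fell by 4.89, S100a6 fell by 2.68 and S100a1 fell by 2.54, and in cGAS-/- cells S100a4 fell by 3.09. Without WT LPS replicate 3 the log2 fold changes in WT cells were -3.74, -1.39 and -1.42, all still past the adjusted p. S100a4 was at 1488, 1327 and 1425 TPM in WT UT cells and at 162, 67.3 and 8.63 TPM in WT LPS cells, where replicate 3 was again the lowest, as it was for S100a8 and S100a9. Of 5 tested genes for receptors and adaptors of S100A8/A9, none passed between genotypes (0 and 1 at an unadjusted p under 0.05 in UT and LPS cells), Myd88 rose with LPS in both genotypes and Cd36 fell in WT cells. Chil1 was the 1 chitinase-like gene of 6 that was tested and passed in no comparison, and Chia1, Chit1 and Chil6 were listed at 0 in all 12 samples.

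Genes of the neutrophil surface and of granulocyte-monocyte precursors were counted in the same way. Of 17 surface and maturation genes 6 were tested, and Padi4, which citrullinates histones in neutrophil extracellular traps, was lower in cGAS-/- cells, at 3.23, 2.82 and 2.91 TPM in WT UT and 0.498, 0.823 and 0.754 TPM in cGAS-/- UT cells (log2 fold change -1.24, adjusted p = 0.0087). Padi4 was lower with LPS too (-1.07, adjusted p = 0.021). Csf3r, the receptor of granulocyte colony-stimulating factor, was at 11.6, 14.6 and 12 TPM in WT UT and 18.4, 19.3 and 14.8 TPM in cGAS-/- UT samples and passed only in WT cells with LPS, where it rose by 1.42. With LPS, Mcemp1 rose in cGAS-/- cells and Alox5ap fell in both genotypes. Of 15 precursor genes 6 were tested, and 0 passed between the untreated genotypes (0 at an unadjusted p under 0.05). The factor genes Cebpa and Cebpb moved in opposite directions with LPS, with log2 fold changes of -3.75 in WT and -3.06 in cGAS-/- cells for Cebpa and of 1.76 and 1.78 for Cebpb, and Spi1, which encodes PU.1, passed in no comparison. The WT value of Cebpa was -2.89 without WT LPS replicate 3 and -4.23 without replicate 2, and that of Cebpb was 2.265 and 1.51. Plac8 rose in WT cells with LPS by 5.29 and was lower in cGAS-/- LPS than in WT LPS cells (log2 fold change -4.56, adjusted p = 0.0045). These changes were 4.56 and -3.83 without WT LPS replicate 1 and 6.26 and -5.535 without replicate 3, all past the adjusted p.

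Cell type markers that moved with the members are given as levels. The early myeloid precursor list, with 7 of 9 genes in the table, summed to 1.79 to 2.18 TPM in WT UT, 0.269 to 1.20 in WT LPS, 0.463 to 0.711 in cGAS-/- UT and 1.06 to 1.19 in cGAS-/- LPS samples. It contains Elane, Mpo and Prtn3. Of its other 4 genes in the table, Kit and Cd34 overlapped between the UT genotypes, with Kit at 0.119 to 0.274 TPM in WT and 0.191 to 0.305 TPM in cGAS-/- samples. Myb and Gfi1 were lower in every cGAS-/- UT sample, Myb at 0.00677 to 0.0245 TPM against 0.0480 to 0.0857 TPM in WT UT and Gfi1 at 0 to 0.0153 TPM against 0.0217 to 0.0778 TPM. Ly6g and Retnlg, markers of mature mouse neutrophils, are not analysed here. The B cell list, with 7 of 9 genes in the table, summed to 37.3 to 45.7 TPM in WT UT and 16.6 to 21.5 TPM in cGAS-/- UT samples, and to 3.51 to 8.99 and 1.29 to 2.21 TPM with LPS. Most of that sum was Ighm, at 36.3 to 42.8 TPM in WT UT samples, which fell with LPS in both genotypes. Cd79a of the same list went the other way in WT cells with LPS (log2 fold change 0.85, adjusted p = 0.0368) and was lower in cGAS-/- LPS than in WT LPS cells (-1.25, adjusted p = 0.0379). The monocyte list, with 2 of 5 genes in the table, summed to 8.87 to 9.87 TPM in WT UT, 5.34 to 7.36 in WT LPS, 3.19 to 3.82 in cGAS-/- UT and 30.6 to 32.3 in cGAS-/- LPS samples. Its genes in cGAS-/- UT against WT UT had log2 fold changes of -1.01 for Ccr2 (adjusted p = 0.235) and -1.07 for Cd300e (adjusted p = 0.363). The sum in cGAS-/- LPS samples was nearly all Cd300e, at 30.1 to 31.9 TPM (log2 fold change 3.29 against WT LPS, adjusted p = 0.00146), while Ccr2 was lower there, at 0.445 to 0.608 TPM (-1.49, adjusted p = 0.0384). The 8 T and NK cell markers summed to no more than 0.962 TPM, and none passed the filter. The eosinophil peroxidase gene Epx was listed at 0 in all 12 samples, as were the mast cell and basophil receptor gene Fcer1a and the red cell gene Slc4a1. On the same lists, Ccr3 of the eosinophil list was at 5.86 to 8.87 TPM in WT UT and 11.5 to 55.2 TPM in WT LPS samples (log2 fold change 1.69, adjusted p = 0.0154), whereas Siglecf of that list was at 0.280 to 0.323 TPM in WT UT and at 0, 0.0782 and 0 TPM in WT LPS samples. Hdc of the mast cell and basophil list rose by 0.51 in WT cells with LPS (adjusted p = 0.0429), and the globins reached the 37.4 TPM given above. The part of B cells, precursors, monocytes or other cell types in the members' levels was not tested. In a list of alternative activation genes, 10 of 15 genes were tested, and 2 of them, Mrc1 and Clec10a, were lower in cGAS-/- UT than in WT UT cells, where 1.83% of all genes passed. Tgm2 of this list was at 12.7 to 13.3 TPM in WT UT and 29.0 to 32.5 TPM in cGAS-/- UT samples (log2 fold change 1.17, adjusted p = 0.276).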

How the data were processed

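RNA-seq of 12 BMDM samples was analysed in 4 groups of 3, taken from the sample labels. Per the labels and methods, reads were trimmed with fastp and processed with STAR and kallisto on GRCm39, and the deposited values, averaged by the authors over the transcripts of a symbol, were read as TPM from their range, since the table names no unit. The table holds no read counts, so no depth or counting interval could be given. Members and gene lists were chosen with earlier results of these data known. Values were tested as log2(TPM + 1) with limma 3.58.1 in R 4.3.3, with a mean per group over all 12 samples, a variance trend and Benjamini-Hochberg adjustment over 11887 genes, so that each comparison shares 1 estimate of the spread. All members and Cgas were named, with up to 4 genes per list and comparison past the adjusted p and the 3 most correlated genes per member, and any other gene was chosen after its values were seen. Some genes that count in the lists are not reported here by name. The fit was checked on simulated data. Alternatives were pseudocounts of 0.1 and 5, no filter or a filter of 5 TPM, a common total, TMM factors (computed with own code), quantile normalization, no trend, sample weights, the 6 samples of a comparison, a replicate block, the adjusted p alone and leaving out each sample. Promoters and gene positions came from GRCm39 with GENCODE M39, and similar transcripts from blastn 2.17.0. Python 3.11.15 with pandas 2.3.3, numpy 2.4.6 and matplotlib 3.10.9 was used for tables and figures.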

Additional observations from a re-analysis of the deposited data

Results flagged for a closer look

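The LPS effect differed between the genotypes, by the interaction term in limma, for 4 of the genes described. Chil3 had a difference (cGAS-/- minus WT, log2 scale) of 1.999 ± 0.405 (SE, adjusted p = 0.0497), where the LPS effect was -2.24 in WT and -0.24 in cGAS-/- cells. This difference of Chil3 passed the adjusted p in only 5 of 22 alternatives. For Mmp9 the difference was 5.34 ± 0.513 (adjusted p = 0.000949), with effects of -0.34 in WT and 5.00 in cGAS-/- cells. Il6, encoding the cytokine interleukin 6 and listed here as a check of the LPS response, had a difference of 3.139 ± 0.233 (adjusted p = 0.000288). Il6 was at 1.07, 0.772 and 0.559 TPM in WT LPS and at 14.8, 12.5 and 15.5 TPM in cGAS-/- LPS samples. Cd300e, from the monocyte marker list, had a difference of 4.358 ± 0.550 (adjusted p = 0.00418), with effects of -0.16 in WT and 4.2 in cGAS-/- cells. No test for outlying samples was run within groups of 3, although WT LPS replicates 1 and 3 were described above as standing apart.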

How the results depend on the processing

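Of members called at both thresholds, the count in cGAS-/- UT against WT UT was 1, and 2 with a pseudocount of 0.1 and 4 by the adjusted p alone. For WT LPS against WT UT it was 2, and 0 with a pseudocount of 5, TMM factors or quantile normalization and 4 by the adjusted p alone. In cGAS-/- LPS against cGAS-/- UT it was 1, and 0 with a pseudocount of 5 or sample weights, and for the difference between the LPS effects it was 0, and 1 with a common total or by the adjusted p alone. In the same order, 0.370%, 4.32%, 3.50% and 0.404% of all genes were called in the main fit. By the adjusted p alone the shares were 1.83%, 27.6%, 13.8% and 0.900%. Each count of 4 includes Ltf and Elane, which owed their place past the filter to WT UT, so these counts are not read against the shares. Leaving out 1 sample at a time gave 1 to 2 in UT cells (2 without WT UT replicate 1), 0 to 1 between genotypes with LPS (1 without WT LPS replicate 3), 1 to 2 for LPS in WT cells (1 without WT LPS replicate 2 or 3), 0 to 1 for LPS in cGAS-/- cells (0 without cGAS-/- UT replicate 1 or 3 or cGAS-/- LPS replicate 2 or 3) and 0 to 1 for the difference (1 without any 1 WT LPS sample). Beyond what the alternative's construction shows, the cause was not tested.

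Ngp in UT cells and Chil3 with LPS in WT cells passed the adjusted p in 23 of 23 alternatives. Same-numbered samples did not deviate together (18 pairs, r of -0.03 to 0.04, 6 best with their own number), and the replicate block gave the counts 1, 0, 2, 1 and 0, as without it, but with the block Elane in UT cells (adjusted p = 0.0685) and the Chil3 interaction (adjusted p = 0.103) no longer passed the adjusted p. The share of higher genes among all called genes moved with scaling for LPS in WT cells, from 33.1% to 63.3% with TMM factors and 59% with quantile normalization. For LPS in cGAS-/- cells it was 55.5%, and 67.5% with TMM factors. Between genotypes with LPS it was 45.2%, and 32.9% with quantile normalization, and for the difference between the LPS effects 77.1%, and 56.5% and 50% with TMM factors and quantile normalization. No read counts were available here, so precision at low TPM, where Elane, Mpo and Prtn3 lie, is unknown.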

Other observations

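Within the untreated groups, the samples high in S100a8 were also high in some LPS-inducible genes. In WT UT replicates 1, 2 and 3, S100a8 was at 73.1, 38.9 and 37.5 TPM, Lcn2 at 8.71, 3.71 and 3.35 TPM, Slpi, encoding a secreted protease inhibitor, at 12.5, 4.01 and 4.28 TPM, and Il1b at 6.21, 4.08 and 2.17 TPM. In cGAS-/- UT replicates 1, 2 and 3, S100a8 was at 21.5, 27.7 and 50.1 TPM, Lcn2 at 0.904, 3.89 and 10.3 TPM, Slpi at 2.33, 8.28 and 11.7 TPM, and Il1b at 2.45, 4.68 and 8.24 TPM. Saa3, an acute phase gene, was at 41.0, 54.3 and 113 TPM in the cGAS-/- UT samples in the same order, but at 76.8, 35.9 and 67.0 TPM in the WT UT samples. These genes were picked after their values were seen, and 3 samples per group allow no test of the relation.

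The transcription factor genes Myb and Gfi1, which act in myeloid precursors, were highest in cGAS-/- LPS cells, where Elane, Mpo and Prtn3 were near 0. Myb was at 0.392 to 0.595 TPM and Gfi1 at 0.362 to 0.647 TPM there, and neither passed the filter on low values.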
